A study of Mus musculus with 473 samples.

Results

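The LIM-homeodomain transcription factors Isl1, Lhx1, Lhx2, Lhx5, Lhx6, Lhx8 and Lhx9 are 7 of the 28952 features of a table of single-cell expression values, and they were chosen by gene name as listed members of this family. All 7 were present in the table under their Ensembl identifiers. The cells were 473 fluorescent cells sorted from Th:EGFP mice (Tg(Th-EGFP)DJ76Gsat), a reporter line in which regulatory sequences of the tyrosine hydroxylase gene Th, carried on a bacterial artificial chromosome, drive enhanced green fluorescent protein. RNA of each cell was copied with Smart-Seq2, a full-length method that starts from poly(A) RNA, and the study asked how Th:EGFP neurons of different brain regions and ages differ. Hemizygous reporter sires were crossed with wild-type Swiss Webster dams, and every cell of every group carried the same reporter and no other alteration or treatment. The groups were midbrain (P7 MB), forebrain (P7 FB) and olfactory bulb (P7 OB) at postnatal day 7, and midbrain (E15.5 MB) and forebrain (E15.5 FB) at embryonic day 15.5. In the labels the forebrain tissue is the hypothalamus. Each group was a pool, of 5 pups at P7 and of 4 embryos at E15.5, so the cells of a group share their animals and no difference between groups has a replicate check. P7 tissue was digested for longer and cleared on a density gradient, a step that E15.5 tissue did not have. A cell entered a group by its fluorescence, which reports activity of the transgene and not the presence of Th RNA.

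LIM-homeodomain proteins bind DNA through a homeodomain and bind cofactors, chiefly Ldb1 and Ldb2, through a pair of zinc-binding LIM domains. Combinations of them in a neuron are known to set its identity, and several occur as pairs of close paralogs. Isl1 is known from motor neurons and from neurons of the arcuate nucleus of the hypothalamus. Lhx6 and Lhx8 are known from the ventral telencephalon, where they follow Nkx2-1 in GABAergic and cholinergic neurons. Lhx1 and Lhx5 form a further pair with roles in head formation, in the cerebellum and in the spinal cord, and Lhx2 and Lhx9 form another with roles in eye, forebrain and spinal interneurons. Lmx1a and Lmx1b, which belong to the same family and are not among the members, act in midbrain dopaminergic neurons.

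The homeobox, the 180 bases that encode the 60 residues of the homeodomain, is shown for the 3 paralog pairs because the results below turn on which paralogs share a cell. The sequences are those of the transcripts in GENCODE M21 (build GRCm38, the assembly also called mm10), 5′ to 3′ on the coding strand with introns removed, and capitals mark the bases that differ from the other gene of the pair.
Lhx2: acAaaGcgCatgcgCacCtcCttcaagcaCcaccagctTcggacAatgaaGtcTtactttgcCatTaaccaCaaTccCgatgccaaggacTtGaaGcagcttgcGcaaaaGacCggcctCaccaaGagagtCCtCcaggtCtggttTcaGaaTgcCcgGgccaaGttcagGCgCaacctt
Lhx9: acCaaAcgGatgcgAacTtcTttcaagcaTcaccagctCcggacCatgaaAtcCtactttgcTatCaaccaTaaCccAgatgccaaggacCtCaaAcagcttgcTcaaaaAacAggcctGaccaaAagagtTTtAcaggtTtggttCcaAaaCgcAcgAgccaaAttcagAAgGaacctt
Lhx6: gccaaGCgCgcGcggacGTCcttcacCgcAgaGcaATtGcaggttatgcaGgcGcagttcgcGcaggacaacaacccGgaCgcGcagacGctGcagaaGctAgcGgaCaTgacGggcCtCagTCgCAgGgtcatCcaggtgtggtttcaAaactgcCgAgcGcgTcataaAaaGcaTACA
Lhx8: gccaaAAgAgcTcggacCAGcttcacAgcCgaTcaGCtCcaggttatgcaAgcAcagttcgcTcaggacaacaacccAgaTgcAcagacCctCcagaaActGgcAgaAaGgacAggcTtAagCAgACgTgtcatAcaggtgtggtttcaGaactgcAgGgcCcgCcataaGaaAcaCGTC
Lhx1: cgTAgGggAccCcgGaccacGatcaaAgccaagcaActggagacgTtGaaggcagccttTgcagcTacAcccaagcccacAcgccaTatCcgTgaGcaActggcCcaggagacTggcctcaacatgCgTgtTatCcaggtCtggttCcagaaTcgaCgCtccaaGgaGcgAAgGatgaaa
Lhx5: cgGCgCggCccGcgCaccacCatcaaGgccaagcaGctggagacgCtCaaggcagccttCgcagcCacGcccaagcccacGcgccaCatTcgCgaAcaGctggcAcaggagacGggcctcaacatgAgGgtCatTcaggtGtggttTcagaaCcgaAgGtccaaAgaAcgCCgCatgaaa
The Lhx2 homeobox lies in exons 4 and 5 of 5 (chr2:38359966-38368883, plus strand) and that of Lhx9 in exons 6 and 7 of 7 (chr1:138831583-138832839, minus strand). Those of Lhx6 (chr2:36091095-36091647, minus strand) and Lhx8 (chr3:154311682-154321668, minus strand) are each spread over exons 6 to 8. Those of Lhx1 (chr11:84520408-84521828, minus strand) and Lhx5 (chr5:120435491-120436349, plus strand) each lie in exons 3 and 4. All 6 of these stretches are protein-coding sequence. Lhx2 and Lhx9 differed at 37 of 180 bases and at 0 of 60 residues, Lhx1 and Lhx5 at 36 bases and 0 residues, and Lhx6 and Lhx8 at 46 bases and 4 residues. Within a pair the proteins thus read the same or nearly the same in this domain, whereas the RNA can be told apart base by base. The longest run of identical bases shared anywhere by the transcripts of a pair was 17 bases for Lhx2 and Lhx9, 14 for Lhx6 and Lhx8 and 20 for Lhx1 and Lhx5. Longer runs were shared outside the pairs, of 65 bases by Lhx5 and Lhx9 and of 41 by Lhx6 and Lhx9. Isl1 (ENSMUSG00000042258.13, chr13:116298281-116309689, minus strand), whose homeobox lies in exon 4 of 6, was 52.8 to 58.9% identical to the others in these bases. Lhx2 overlaps the antisense genes Gm27197 and Gm13584, and Lhx5 overlaps the antisense gene Gm27199, so that without strand information the values of Lhx2 and Lhx5 are uncertain as far as reads of these partners could be shared.

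Values were compared in 249 cells that passed the quality control of the authors: 30 of P7 MB, 31 of P7 FB, 16 of P7 OB, 88 of E15.5 MB and 84 of E15.5 FB. These lay on the 3 of 5 library plates on which the gene count in a cell's label followed the column of the same name (r of at least 0.9 over the cells of a plate). On the other 2 plates, both of P7, r was -0.0338 and -0.0519 by name, and 0.999 on each once their columns were exchanged well by well. The 147 passed cells of these plates (45 of MB, 50 of FB and 52 of OB) were read with columns exchanged and are given beside the P7 values as "exchanged plates". The median number of genes per cell in the labels was 6126.5 in P7 MB, 5164 in P7 FB, 3310.0 in P7 OB, 6227.5 in E15.5 MB and 5554.5 in E15.5 FB. Th, whose regulatory sequences drive the reporter, was found in 29 of 30 P7 MB, 30 of 31 P7 FB and 16 of 16 P7 OB cells, but in 26 of 88 E15.5 MB and 27 of 84 E15.5 FB cells, so most embryonic cells carried the label without Th RNA at 1 FPKM. The neuronal markers were found in all 249 cells, the cycling markers in 2 cells of E15.5 FB, and the microglial markers in 2 cells of P7 MB. At least 1 marker of the oligodendrocyte lineage was found in 18 P7 MB, 19 P7 FB, 5 P7 OB, 46 E15.5 MB and 32 E15.5 FB cells, and at least 1 erythroid marker in 6, 14, 2, 21 and 24 cells of these groups. Markers of astrocytes or radial glia were found in 2, 8, 2, 3 and 1 cells and endothelial markers in 1, 1, 2, 4 and 4, and the part of these cells in the results was not tested. Summed FPKM per cell had medians between 493126 and 545503 at P7, and 972789 in E15.5 MB and 1054297 in E15.5 FB, against 214296 to 243421 on the exchanged plates. Levels are therefore compared across ages and plates beside the shift of all features, and shares of cells are given throughout. FPKM scales fragments to transcript length and to the library, so levels of different genes may be set side by side. A member was counted as found in a cell at FPKM of 1 or more, and each share carries its 95% Clopper-Pearson interval in brackets, an exact interval for counting error alone. Where 0 cells had a member, the limit printed as "up to" is instead 3 cells over the number of cells, which lies somewhat under the upper end of the exact interval. No test was made, since cells of a pool are not replicates.

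The members were split by region. Isl1 was the most frequent member of the cells labelled as hypothalamic at both ages, and Lhx9 and Lhx2 marked the embryonic midbrain. Lhx6 and Lhx8 were found chiefly in the embryonic forebrain group, whose tissue of origin within the forebrain was not tested. The olfactory bulb had almost none of the members. At least 1 member was found in 5 of 30 P7 MB cells (16.7%, 5.64 to 34.7%), 25 of 31 P7 FB cells (80.6%, 62.5 to 92.5%) and 2 of 16 P7 OB cells (12.5%, 1.55 to 38.3%). Embryonic cells had it in 65 of 88 cases in MB (73.9%, 63.4 to 82.7%) and in 75 of 84 in FB (89.3%, 80.6 to 95%). On the exchanged plates these counts were 6 of 45 in P7 MB, 42 of 50 in P7 FB and 1 of 52 in P7 OB. The intervals of P7 FB, E15.5 MB and E15.5 FB all lay above those of P7 MB and P7 OB.

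**Figure D1:**
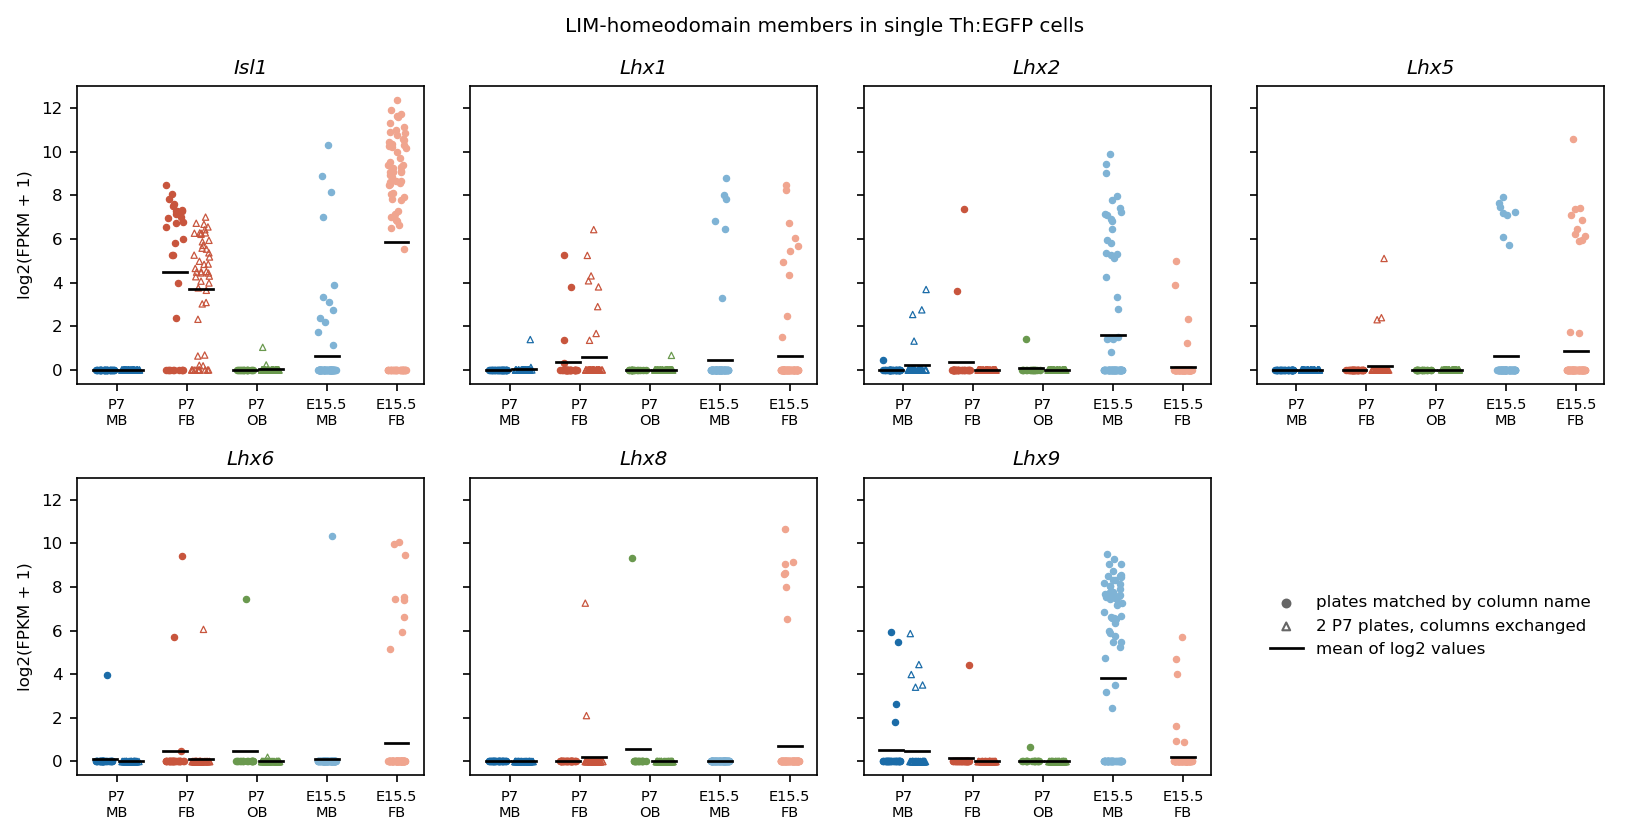
Level of each member in single cells, log2(FPKM + 1) on the y axis and groups on the x axis; filled circles are cells of plates matched by column name, open triangles are P7 cells of the 2 plates with columns exchanged, and black lines are means of the log2 values. Isl1 was found in 21 of 31 P7 FB and 53 of 84 E15.5 FB cells, Lhx9 in 47 of 88 E15.5 MB cells, and most other values are at 0.

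Isl1 was a gene of hypothalamic Th:EGFP cells, and the intervals of its share there overlapped between the ages. Of the 31 P7 FB cells 21 had it (67.7%, 48.6 to 83.3%), and of the 84 E15.5 FB cells 53 did (63.1%, 51.9 to 73.4%). The exchanged plates had it in 36 of 50 P7 FB cells (72%, 57.5 to 83.8%). The lowest P7 FB cell was at 0, the median at 62.2 FPKM and the highest at 353, and in E15.5 FB the lowest was at 0, the median at 252 and the highest at 5369. In E15.5 FB no cell lay between 0 and 46.1, so cells either had a high Isl1 value or none. Mean Isl1 was 89.1 ± 93.8 FPKM in P7 FB (SD over 31 cells) and 658 ± 1013 in E15.5 FB (84 cells), a log2 fold of -2.87, beside a median of -1.20 over all features tested. Both of these values are as deposited. After each cell was rescaled to the same sum, the median over all features was -0.24, which is on another scale than the -2.87 of Isl1.

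In the midbrain Isl1 was rare and mostly low. It was listed at 0 in all 30 P7 MB cells, which allows a share of cells with a value of up to 10%, in all 45 P7 MB cells of the exchanged plates (up to 6.67%) and in all 16 P7 OB cells (up to 18.8%). Of the 52 P7 OB cells on the exchanged plates 1 had it, at 1.05 FPKM, and another was at 0.176. In E15.5 MB 12 of 88 cells had it (13.6%, 7.25 to 22.6%), with a lowest found value of 1.24 FPKM, a median of 8.44 and a highest of 1265. That highest cell gave 57.8% of the group's total, and the mean was 24.9 ± 146 with it and 10.6 without it. The 4 highest Isl1 cells of E15.5 MB, at 1265, 469, 280.3 and 128 FPKM, had Gad1 at 387, 114, 282 and 558 FPKM. Gad1, which makes GABA, was found in 6 of the 12 E15.5 MB cells with Isl1 and in 8 of the 76 without. Dlx1 and Dlx2, homeobox genes of forebrain GABAergic neurons, were each found in 5 of the 12 and in 5 of the 76. By mean level the order of groups was E15.5 FB, P7 FB, E15.5 MB and then the P7 MB and P7 OB groups at 0. E15.5 FB and P7 FB did not differ in share beyond their intervals, and in each of them the SD over cells exceeded the mean.

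In the embryonic hypothalamus Isl1 cells and the other cells differed in transmitter genes and transcription factors. Gad2, which also makes GABA, was present in 53 of 53 E15.5 FB cells with Isl1 and in 18 of 31 without. The vesicular glutamate transporter Slc17a6 went the other way, with 2 of 53 and 14 of 31. Six3, a homeobox factor of the anterior forebrain and hypothalamus, was found in 37 of 53 cells with Isl1 and in 2 of 31 without. Otp, Sim1 and Fezf1, factors of other hypothalamic nuclei, were found in 0 of 53 cells with Isl1 and in 8, 6 and 6 of 31 without. The arcuate peptide genes Npy and Pomc were found in 16 and 7 of the 53 cells with Isl1 and in 0 of the 31 without. Th itself was found in 22 of 53 and in 5 of 31. The intervals on the sides with and without Isl1 overlapped for Th and Pomc and for none of the other genes named here. Cells with Isl1 had a median of 5390.0 genes in the labels and those without had 5907. The part of the gene number in these differences was not tested.

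At P7 the hypothalamic cells with Isl1 again had GABAergic genes. Gad2 was found in 20 of 21 P7 FB cells with Isl1 and in 6 of 10 without, and on the exchanged plates in 33 of 36 and in 8 of 14. Slc17a6 was found in 0 of 21 and 3 of 10, and on the exchanged plates in 0 of 36 and 3 of 14. Slc18a3, the vesicular acetylcholine transporter, was found in 9 of 21 cells with Isl1 and in 0 of 10 without, and on the exchanged plates in 11 of 36 and in 0 of 14. The growth hormone-releasing hormone gene Ghrh was found in 12 of 21 and 3 of 10, with 21 of 36 and 6 of 14 on the exchanged plates. For each of these 4 genes the intervals of the cells with and without Isl1 overlapped on either set of plates. On the main plate, P7 FB cells with Isl1 had a median of 5412 genes and those without had 4148.

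**Figure D2:**
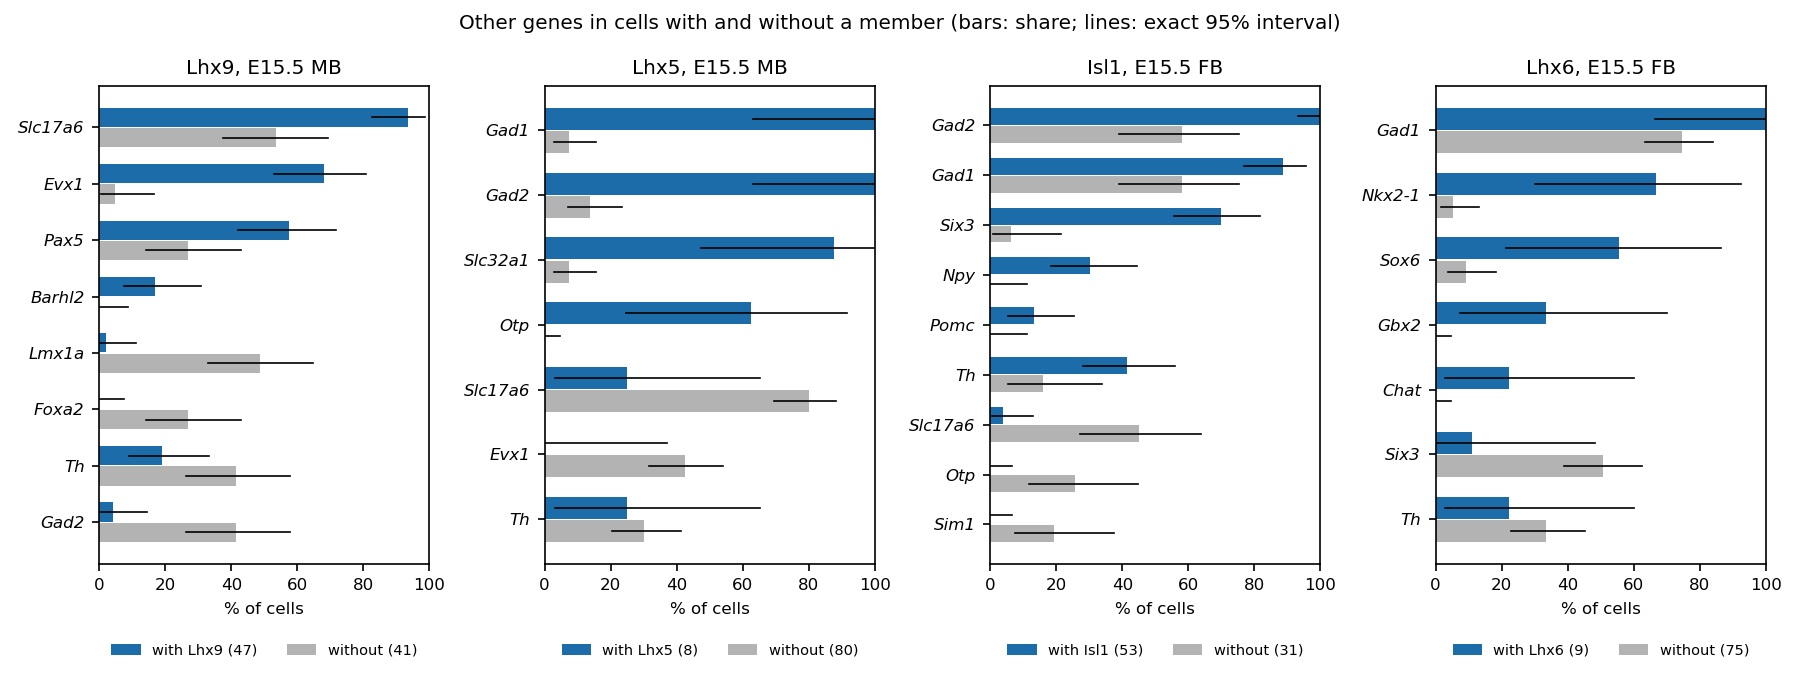
Share of cells (x axis, %) in which other genes were found (y axis), for cells with a member (blue) and cells of the same group without it (grey), with exact 95% intervals as lines and cell numbers in the legends. In E15.5 MB, Slc17a6 was in 44 of 47 cells with Lhx9 and Gad1 in 8 of 8 with Lhx5; in E15.5 FB, Gad2 was in 53 of 53 cells with Isl1.

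Lhx9 (ENSMUSG00000019230.14, chr1:138825186-138848577, minus strand) and Lhx2 (ENSMUSG00000000247.11, chr2:38339281-38369733, plus strand) were genes of the embryonic midbrain. There the cells with Lhx2 were nearly all cells with Lhx9. Of the 88 E15.5 MB cells 47 had Lhx9 (53.4%, 42.5 to 64.1%), against 4 of the 84 E15.5 FB cells (4.76%, 1.31 to 11.7%). Lhx2 was present in 25 E15.5 MB cells (28.4%, 19.3 to 39%) and again in 4 E15.5 FB cells. In E15.5 MB the lowest Lhx9 value was 0, the median 17.9 and the highest 727 FPKM, and for Lhx2 the lowest and the median were 0 and the highest was 939. In E15.5 FB the highest values were 51.3 for Lhx9 and 31 for Lhx2, so the FB cells lay in the low part of the MB range. Mean Lhx9 was 112 ± 158 FPKM in E15.5 MB and 1.14 ± 6.39 in E15.5 FB, a log2 fold of 5.72, and mean Lhx2 was 43.7 ± 140.4 and 0.597 ± 3.70, a log2 fold of 4.81. On the E15.5 library plates taken apart, Lhx9 was in 44.2% and 62.2% of MB cells and Lhx2 in 23.3% and 33.3%.

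Both genes were found together in 24 E15.5 MB cells, which are 96% of the 25 cells with Lhx2 and 51.1% of the 47 with Lhx9. The remaining Lhx2 cell had 1.68 FPKM of Lhx2 and was listed at 0 for Lhx9. The highest Lhx2 cell, at 939 FPKM, was also the highest Lhx9 cell, at 727, but cells with 1.86 and 1.77 FPKM of Lhx2 still had 528 and 216 of Lhx9. Pearson's r of the log2 values was 0.56 over the 88 cells, which share a pool and its library plates, and 40 of these cells were under 1 FPKM for both genes. Lhx9 was thus found with and without Lhx2, while Lhx2 without Lhx9 was 1 low cell.

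In the postnatal midbrain both were rarer. Lhx9 was found in 4 of 30 P7 MB cells (13.3%, 3.76 to 30.7%), at 59.6, 44.1, 5.30 and 2.53 FPKM, and Lhx2 in 0 of 30 (up to 10%), where 1 cell had 0.355 FPKM. On the exchanged plates Lhx9 was found in 5 of 45 cells (11.1%, 3.71 to 24.1%), at 57.1, 20.7, 14.8, 10.4 and 9.58 FPKM, and Lhx2 in 4 of 45 (8.89%, 2.48 to 21.2%), at 11.9, 5.76, 4.82 and 1.50. All 4 of these Lhx2 cells were among the 5 with Lhx9. The 5 cells all belonged to the cluster P7.MB.2, as did 2 of the 4 on the main plate. P7.MB.2 cells had little Th, with a mean of 43.1 ± 49.7 FPKM (4 cells) against 3004 ± 1078 in P7.MB.1 (15 cells). The exchanged plates had means of 68.9 ± 83.2 FPKM in P7.MB.2 (7 cells) and 1178 ± 263 in P7.MB.1 (24 cells). Of these 5 exchanged-plate cells, Slc17a6 was found in 5 and the dopamine transporter Slc6a3 in 0, against 27 and 38 of the 40 MB cells without Lhx9. By mean level the order for Lhx9 was E15.5 MB, P7 MB at 3.72 ± 13.3, E15.5 FB, P7 FB at 0.653 ± 3.64 and P7 OB at 0.0351 ± 0.141. The means after E15.5 MB rested on few cells, and an SD over cells does not tell whether groups differ. No order among these later groups is therefore read.

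Most embryonic midbrain cells with Lhx9 had the glutamate transporter gene Slc17a6, as had 22 of the 41 cells without Lhx9, and 5 of 7 midbrain dopaminergic factors were found in fewer of the cells with Lhx9. Slc17a6 was found in 44 of 47 E15.5 MB cells with Lhx9 (93.6%, 82.5 to 98.7%) and in 22 of 41 without it (53.7%, 37.4 to 69.3%). The homeobox factor Evx1 was found in 32 of 47 and 2 of 41, Pax5, a factor of the midbrain and its border with the hindbrain, in 27 of 47 and 11 of 41, and Barhl2 in 8 of 47 and 0 of 41. Lmx1a was found in 1 of 47 cells with Lhx9 and in 20 of 41 without, and the forkhead factors Foxa1 and Foxa2 in 1 and 0 of 47 and in 16 and 11 of 41. The other dopaminergic factors on the list were also found in cells with Lhx9: Nr4a2 in 7 of 47 and 20 of 41, Pitx3 in 4 and 16, En1 in 11 and 21, En2 in 5 and 4, and Otx2 in 9 and 5. Th was found in 9 of 47 and 17 of 41, and Gad2 in 2 of 47 and 17 of 41. The intervals of cells with and without Lhx9 overlapped for Pax5, Barhl2, Th, En1, En2 and Otx2, and for none of the others named here. Of the 25 cells with Lhx2, 24 had Slc17a6, 16 had Evx1, and 0 had Gad2 or Lmx1a. Cells with Lhx9 had a median of 6480 genes in the labels and cells without it 6014.

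**Figure D3:**
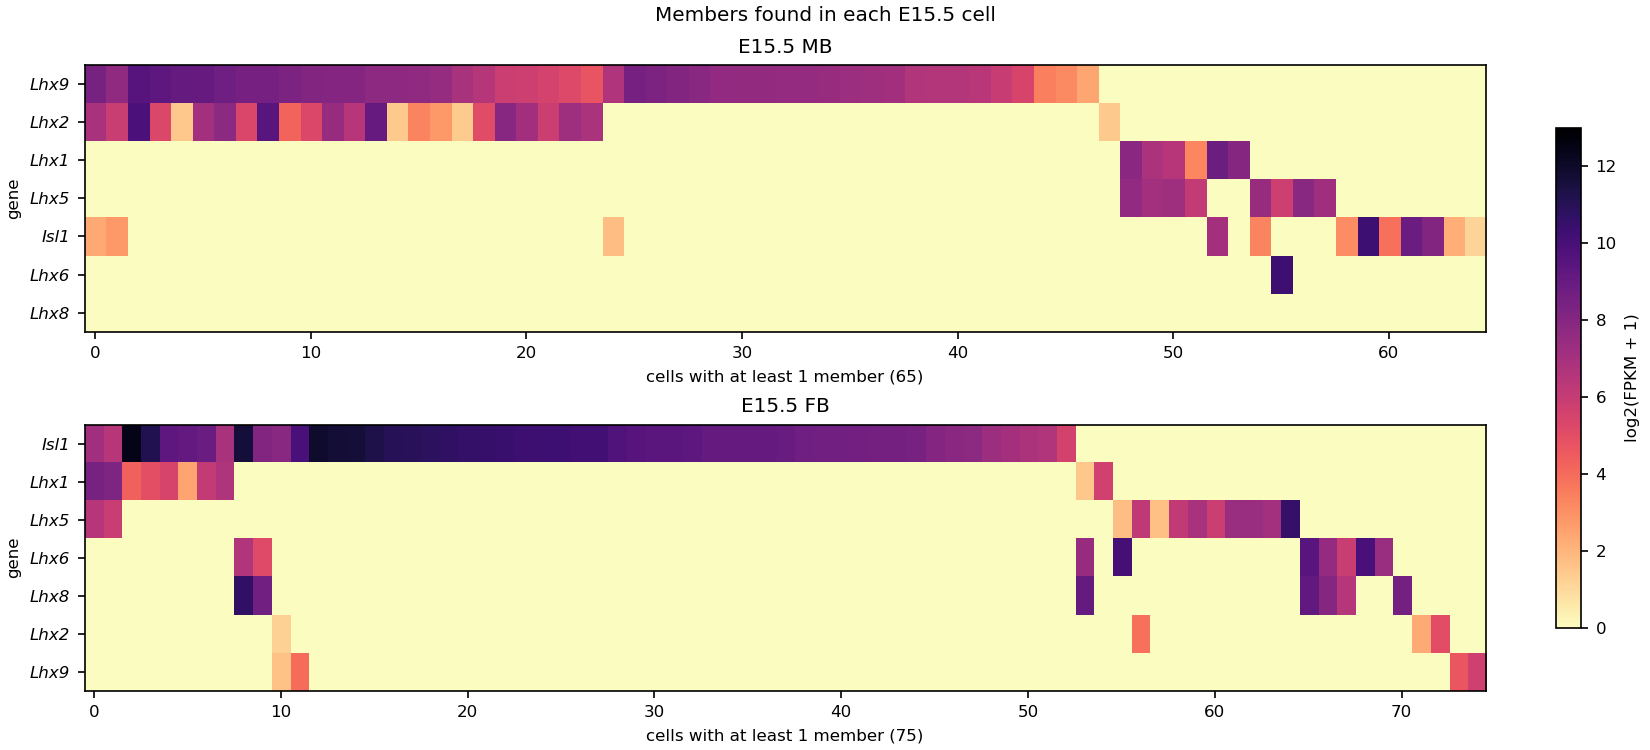
Level of each member, log2(FPKM + 1) with values under FPKM of 1 drawn as 0, in every E15.5 cell with at least 1 member; columns are cells, 65 of E15.5 MB above and 75 of E15.5 FB below, and rows are genes. In MB 24 of 25 Lhx2 cells lie under Lhx9 cells and the 10 cells with Lhx1 or Lhx5 lie outside them; in FB 6 cells have both Lhx6 and Lhx8.

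Lhx1 (ENSMUSG00000018698.15, chr11:84518284-84525535, minus strand) and Lhx5 (ENSMUSG00000029595.9, chr5:120431699-120441223, plus strand) were found in few cells. In the embryonic midbrain these lay outside the Lhx9 cells, and the cells with Lhx5 had GABAergic genes. In E15.5 MB Lhx1 was found in 6 of 88 cells (6.82%, 2.54 to 14.3%) and Lhx5 in 8 of 88 (9.09%, 4.01 to 17.1%). The 6 Lhx1 values were 443, 259, 229, 113, 86.8 and 8.82 FPKM, and the 8 Lhx5 values ran between 52.6 and 239, with a median of 147. They shared 4 cells, which are 66.7% of the Lhx1 cells and 50% of the Lhx5 cells. None of the 10 cells with Lhx1 or Lhx5 had Lhx2 or Lhx9. Gad1 was found in 8 of 8 cells with Lhx5 and in 6 of 80 without, Gad2 in 8 of 8 and 11 of 80, and Slc32a1, the vesicular transporter of GABA, in 7 of 8 and 6 of 80. The homeobox factor Otp was found in 5 of 8 and 0 of 80, and Slc17a6 in 2 of 8 and 64 of 80.

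In the embryonic hypothalamus the pair was mostly apart. Of the 84 E15.5 FB cells 10 had Lhx1 (11.9%, 5.86 to 20.8%), between 1.84 and 351 FPKM, and 12 had Lhx5 (14.3%, 7.61 to 23.6%), between 2.28 and 1524. Only 2 cells had both, with 351 and 306 FPKM of Lhx1 and 88.2 and 60.2 of Lhx5. Of the 10 cells with Lhx1, 8 had Isl1, against 2 of the 12 with Lhx5, and these 2 were the cells with Lhx1. Among transmitter genes, Gad2 was found in 10 of 10 cells with Lhx1 and in 7 of 12 with Lhx5, and Slc17a6 in 0 of 10 and in 6 of 12. For Lhx5 the cell at 1524 FPKM gave 61.8% of the total, and the mean was 29.3 ± 169 with it and 11.3 without it. Mean Lhx1 was 12.9 ± 60.8 FPKM in E15.5 MB and 11.6 ± 52.2 in E15.5 FB, a log2 fold of 0.15. The E15.5 library plates went opposite ways. On plate 1 mean Lhx1 was 21.6 ± 83.9 in MB and 3.25 ± 12.5 in FB. On plate 2 it was 4.63 ± 21.0 in MB and 20.4 ± 73.1 in FB. Each of these plate means rested on at most 6 cells with Lhx1.

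At P7 Lhx1 was found in few cells, all but 1 of them hypothalamic. It was present in 3 of 31 P7 FB cells (9.68%, 2.04 to 25.8%), at 37.8, 13 and 1.59 FPKM, and in 8 of 50 on the exchanged plates (16%, 7.17 to 29.1%), between 1.57 and 85.3. These 11 cells were among the 55 of the cluster P7.FB.2 (20%, 10.4 to 33%), and 0 of 26 cells of P7.FB.1 had it (exact upper bound 13.2%), with intervals that overlapped. On the exchanged plates Slc6a3 was found in 6 of 8 cells with Lhx1 and in 6 of 42 without, and Ghrh in 1 of 8 and 26 of 42. The intervals did not overlap for Slc6a3, and did for Ghrh. On the main plate Slc6a3 was found in 2 of 3 and 3 of 28. Lhx1 was listed at 0 in all 30 P7 MB cells (up to 10%) and all 16 P7 OB cells (up to 18.8%), and on the exchanged plates 1 of 45 MB cells had it, at 1.63 FPKM. Lhx5 was found in 0 of 31 P7 FB cells (up to 9.68%) and in 3 of 50 on the exchanged plates, at 33.5, 4.27 and 3.93 FPKM.

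Lhx6 (ENSMUSG00000026890.19, chr2:36081953-36105408, minus strand) and Lhx8 (ENSMUSG00000096225.7, chr3:154306294-154330659, minus strand) were each found in a small set of embryonic forebrain cells, and these sets overlapped in part. In E15.5 FB 9 of 84 cells had Lhx6 (10.7%, 5.02 to 19.4%), at 1074, 1003, 698, 187, 174, 169, 98.8, 59.9 and 34 FPKM. Lhx8 was found in 7 of 84 (8.33%, 3.42 to 16.4%), at 1625, 571, 531, 398, 380.4, 253 and 90.5 FPKM. They shared 6 cells, which are 66.7% of the Lhx6 cells and 85.7% of the Lhx8 cells. The Lhx6 cells at 1074, 1003 and 169 FPKM were listed at 0 for Lhx8, so the highest Lhx6 values lay outside the shared cells. The Lhx8 cell at 380.4 FPKM was listed at 0 for Lhx6. Both genes were either high or at 0, since no E15.5 FB cell had a value between 0 and 34 for Lhx6 or between 0 and 90.5 for Lhx8. Pearson's r of their log2 values was 0.64 over the 84 cells.

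Cells with Lhx6 or Lhx8 had Nkx2-1, a factor of the ventral telencephalon and hypothalamus, more often than the rest. It was detected in 6 of 9 E15.5 FB cells with Lhx6 and in 4 of 75 without, and in 5 of 7 with Lhx8 and 5 of 77 without. Gbx2, a homeobox factor that is also known from forebrain cholinergic neurons, was found in 3 of 9 and 0 of 75 for Lhx6, and the acetylcholine-synthesising enzyme gene Chat in 2 of 7 and 0 of 77 for Lhx8. Sox6, a factor of ventral telencephalic interneurons, was found in 5 of 9 cells with Lhx6 and in 7 of 75 without. Gad1 was found in 9 of 9 and 56 of 75, and Six3, found in 37 of 53 Isl1 cells, in 1 of 9 and 38 of 75. The intervals overlapped for Gad1, Six3 and Chat, and all of them were wide. The forebrain tissue is labelled as hypothalamus, and whether cells of neighbouring tissue were part of the pool was not tested.

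Outside E15.5 FB each of these genes was found in at most 2 cells of a group on either set of plates. Lhx6 was found in 1 of 88 E15.5 MB cells, at 1295 FPKM beside 52.6 of Lhx5, and Lhx8 was listed at 0 in all 88 (up to 3.41%). At P7 Lhx6 was found in 1 of 30 MB cells at 14.8, in 2 of 31 FB cells at 672 and 51.3, and in 1 of 16 OB cells at 171. That OB cell was also the 1 OB cell with Lhx8, at 645 FPKM, and on the exchanged plates 0 of 52 OB cells had either gene (up to 5.77%). The P7 FB cell with 672 of Lhx6 also had 164 of Lhx2, which is 93.5% of the Lhx2 total of its group. Of the 50 P7 FB cells on the exchanged plates 1 had Lhx6, at 65.4, and 2 had Lhx8, at 152 and 3.29. With so few cells no order of these P7 groups can be read.

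**Figure D4:**
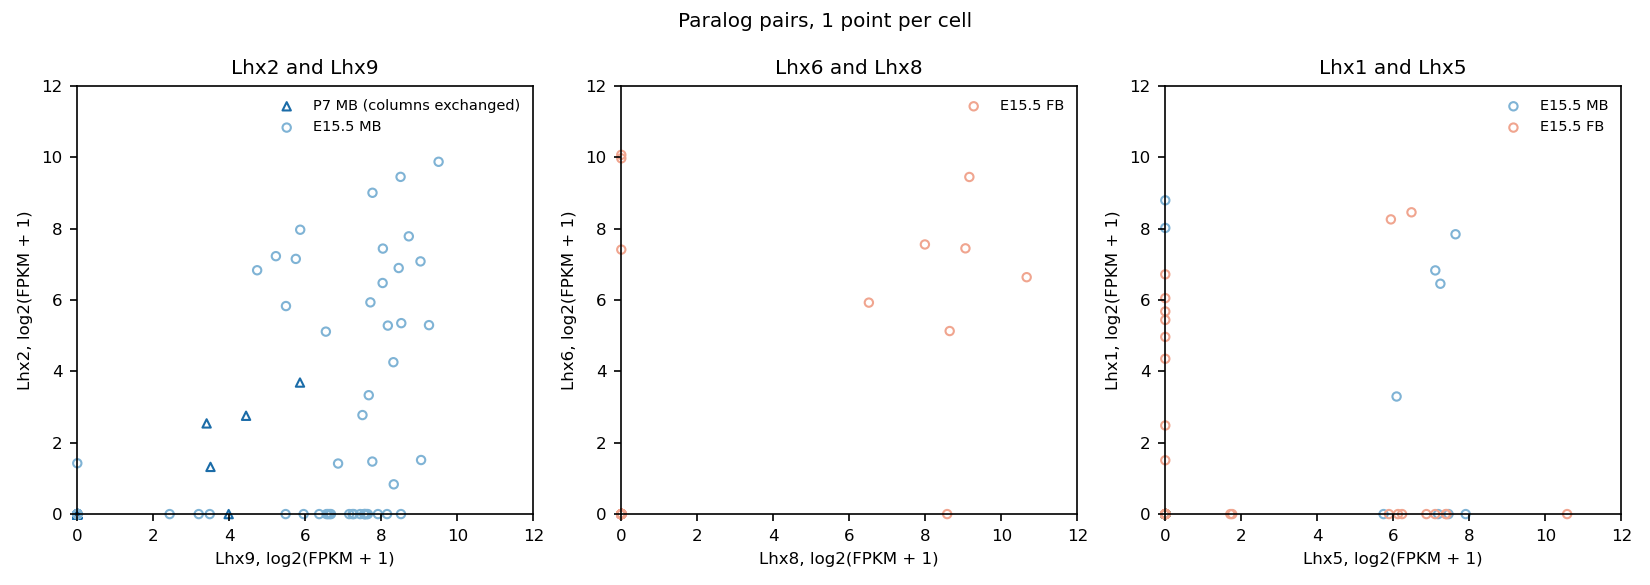
Paralog pairs in single cells, log2(FPKM + 1) on both axes, 1 point per cell; triangles are P7 MB cells of the exchanged plates and circles are E15.5 cells. All but 1 of the 25 E15.5 MB cells with Lhx2 lie away from 0 on the Lhx9 axis, 6 E15.5 FB cells have both Lhx6 and Lhx8, and Lhx1 and Lhx5 meet in 4 E15.5 MB and 2 E15.5 FB cells.

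The clusters that the labels assign to the cells divided the members further. All 24 cells of E15.FB.2 had Isl1 (100%, 85.8 to 100%), at a mean of 1325 ± 1032 FPKM and a lowest value of 353, and 0 of the 24 had any other member at FPKM of 1 or more (up to 12.5% for each). In E15.FB.1 29 of 60 cells had Isl1 (48.3%, 35.2 to 61.6%), and this cluster held every E15.5 FB cell with Lhx1, Lhx2, Lhx5, Lhx6, Lhx8 or Lhx9. In the midbrain E15.MB.1 had Lhx9 in 46 of 68 cells (67.6%, 55.2 to 78.5%) and Lhx2 in 25, and all cells with Lhx1, Lhx5 and Lhx6. E15.MB.2, in which Lmx1a was found in 19 of 20 cells and Th averaged 3780 ± 6476 FPKM, had Lhx9 in 1 of 20 cells (5%, 0.127 to 24.9%), at 10.2 FPKM, and Isl1 in 4, none over 13.7. The Lmx1a cells and the Lhx9 cells of the embryonic midbrain thus overlapped in 1 cell. At P7 Isl1 was found in 7 of 10 cells of P7.FB.1 and 14 of 21 of P7.FB.2, and on the exchanged plates in 15 of 16 and 21 of 34, with intervals that overlapped on either set of plates. The clusters were made by the authors from these cells, so a share by cluster is a description of the cluster and no independent evidence.

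**Figure D5:**
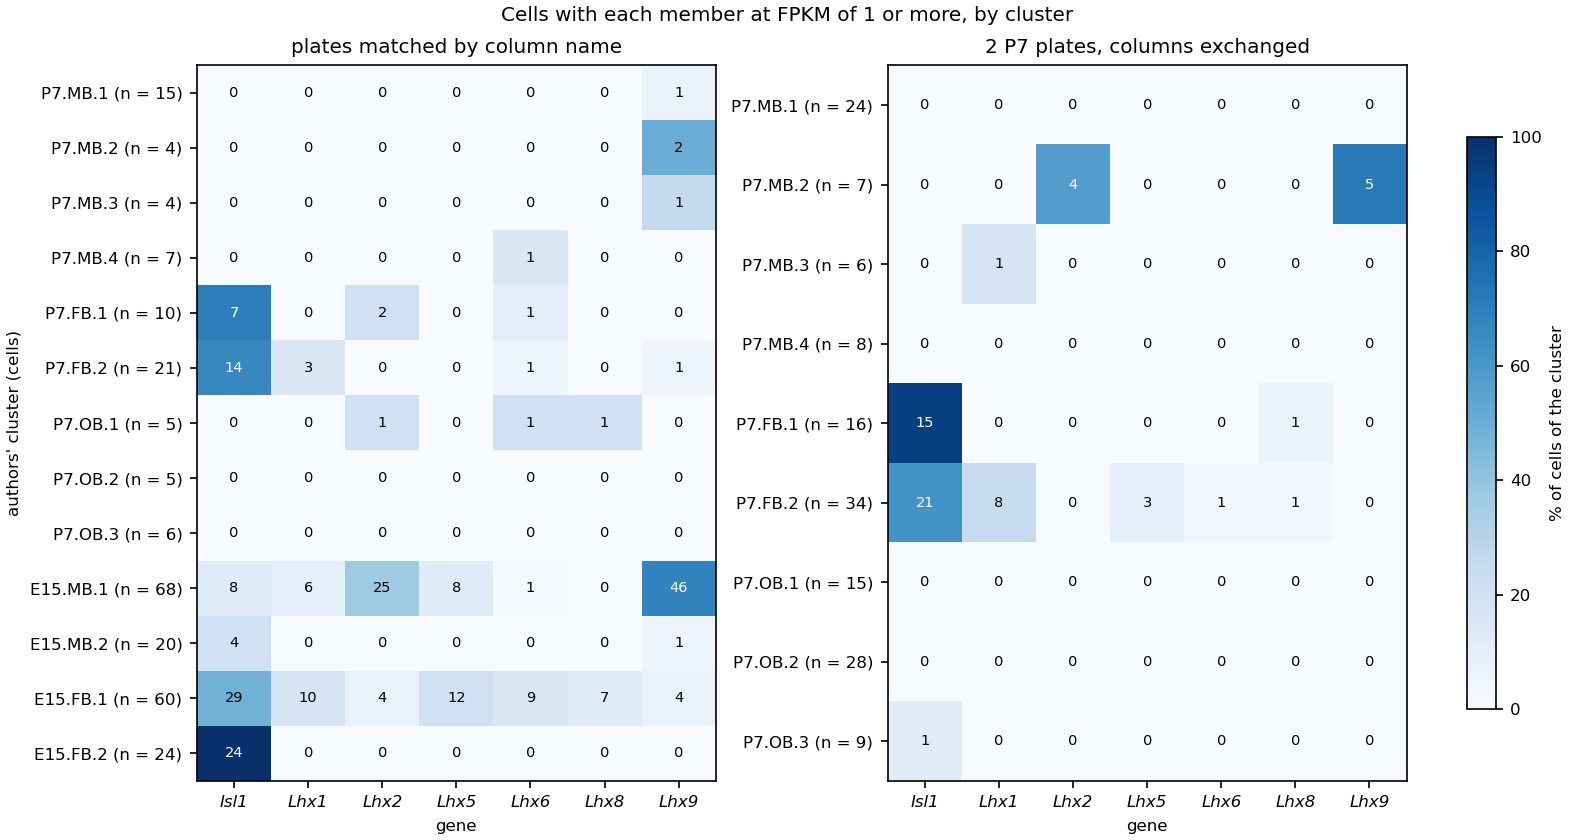
Number of cells with each member at FPKM of 1 or more (digits) and share of the cluster's cells (colour, %), by the authors' cluster on the y axis and gene on the x axis; left, plates matched by column name, right, the 2 P7 plates with columns exchanged. Isl1 is in 24 of 24 cells of E15.FB.2 and Lhx9 in 46 of 68 of E15.MB.1.

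Counted per cell, 30 E15.5 MB cells had exactly 2 members and 2 had 3, and in E15.5 FB these counts were 12 and 6. In E15.5 MB the cells with 2 were mostly those with Lhx9 and Lhx2, and in the 2 with 3 members Isl1, at 5.71 and 4.15 FPKM, came in addition to this pair. In P7 FB 4 of 31 cells had 2 members and 0 had 3, and in P7 MB 5 cells had 1 member each. On the exchanged plates 6 of 50 P7 FB cells had 2 and 1 had 3, and 4 of 45 P7 MB cells had 2, all of them Lhx9 with Lhx2. More than 1 member was therefore found in 32 of 88 E15.5 MB cells and 18 of 84 E15.5 FB cells, and in fewer P7 cells. The 6 E15.5 FB cells with 3 members were of several kinds, with Isl1, Lhx6 and Lhx8 in 2 of them and Isl1, Lhx1 and Lhx5 in 2.

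The members' differences between regions and ages were set beside those of all features. A feature called 2-fold had a ratio of group means of 2 or more either way after 1 FPKM was added to both, which understates the ratio of low genes. The comparisons share groups with each other. At E15.5 all 7 passed the filter of a mean FPKM of at least 1 in either group. For E15.5 MB over E15.5 FB, 2 of 7 members were at least 2-fold higher, Lhx9 and Lhx2, beside 8.46% of all 14405 features tested. Another 4 were at least 2-fold lower, beside 9.41%: Isl1 (log2 fold -4.67), Lhx6 (-1.44), Lhx5 (-1.10) and Lhx8, which was listed at 0 in E15.5 MB and averaged 45.8 ± 204 in E15.5 FB. Lhx1 was the remaining member, and its direction differed between the E15.5 library plates. Lhx8 passed the filter only through E15.5 FB, so a call of lower was fixed in advance. Lhx2, at a mean of 0.597 FPKM in E15.5 FB, passed only through E15.5 MB and could not be called lower. These 2 calls are not read against the shares of all features. The median log2 fold of the 7 was -1.10, and that of all features -0.12. The Lhx5 and Lhx6 directions rested on few cells: on E15.5 library plate 1 alone their log2 folds were 0.17 and 0.40.

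At P7, 5 members passed the filter for P7 MB over P7 FB, of which 1 was at least 2-fold higher (Lhx9, 1.51) beside 10.8% of all features, and 4 were lower beside 13.8%. The 4 were Isl1 and Lhx1, listed at 0 in P7 MB, and Lhx6 (-4.03) and Lhx2 (-2.72). Lhx2 turned to 0.62 on the exchanged plates, where it was listed at 0 in all P7 FB cells and both means were under 1 FPKM. The median of the 5 was -2.72 and that of all features -0.08. For P7 MB over P7 OB 3 members passed, with 1 higher (Lhx9, 2.19) beside 29.8% and 2 lower (Lhx6, -2.97, and Lhx8, listed at 0 in MB) beside 20.3%. Both lower ones came from a single OB cell, and 0 were lower on the exchanged plates. For P7 FB over P7 OB 5 passed, with 4 higher (Isl1 and Lhx1, listed at 0 in OB, Lhx2 at 2.59 and Lhx6 at 1.06) beside 31.1%, and 1 lower (Lhx8, listed at 0 in FB) beside 18.0%. Medians were -2.97 and 1.43, against 0.13 and 0.22 over all features. With 3 to 5 members, most of them found in 1 to 3 cells, nothing is read from these P7 shares against the background. Where a member was listed at 0 in a group, its fold depends on the added 1 FPKM. On the plates matched by column name such a fold is not given, although it enters the medians.

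Between the ages the members were set beside a table in which most features were lower at P7. For P7 MB over E15.5 MB 6 members passed, of which 0 were at least 2-fold higher beside 5.23% of all features and 6 lower beside 58.4%. The median of the members was -4.20 and that of all features -1.18. With each cell rescaled to the same sum, 6 of 6 were lower, beside 22.3% of features, and the median of all features was -0.27. As deposited, Isl1, Lhx1, Lhx2, Lhx5 and Lhx6 had P7 MB means under 1 FPKM and passed the filter only through E15.5 MB. For them a call of lower was fixed or nearly fixed in advance, so nothing is read from these counts. Fewer members were lower with means of log2 values. In that rescaled comparison 11.2% of features were higher, against 5.23% as deposited. As deposited, the log2 fold of Lhx9 was -4.58, and that of Lhx6 was -3.40 with 1 cell in each group. That of Lhx2 was -5.47, against 1 P7 MB cell under 1 FPKM. Isl1, Lhx1 and Lhx5 were listed at 0 in P7 MB. For P7 FB over E15.5 FB 7 passed, of which 1 was higher (Lhx2, 2.06) beside 6.73% and 4 lower (Isl1, Lhx1 at -2.22, Lhx5 and Lhx8) beside 58.8%. The members' median was -2.22 and that of all features -1.20. Rescaled, 13.6% of features were higher and 23.4% lower there, with 1 member higher and 4 lower of 6 that passed. As deposited, 4 of 7 lower in FB is a share near that of all features, and nothing is read from it. Lhx8 was listed at 0 in P7 FB, and Lhx5 had no P7 FB value of 1 FPKM or more. The Lhx2 value rested on 2 P7 FB cells at 164 and 11.5 FPKM, and 0 of 50 cells had it on the exchanged plates (up to 6%). The log2 fold there was -0.68, from means under 1 FPKM in both groups, and no direction is read from it. P7 and E15.5 cells also differed in dissociation, library plates and summed FPKM, and these cannot be told apart from age.

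Of the 5 other LIM-homeodomain genes, Isl2 and Lhx3 were listed at 0 in all 249 cells and Lhx4 was found in 1 cell of E15.5 MB and 1 of E15.5 FB. Lmx1a averaged 42.6 ± 121 FPKM in E15.5 MB and 0.10 ± 0.92 in E15.5 FB, and 18.9 ± 20.6 in P7 MB and 5.85 ± 20.0 in P7 FB, where 3 of 31 cells had it. It was listed at 0 in all P7 OB cells. Of the 6 LIM-domain-binding cofactors on the list, 0 passed 2-fold in either direction for E15.5 MB over E15.5 FB (median log2 fold 0.01) and for P7 MB over P7 FB (median -0.23). Of all features 8.46% and 10.8% were higher and 9.41% and 13.8% lower in these comparisons. Against the olfactory bulb some did: 2 of 6, Ldb2 and Ssbp3, were higher in P7 MB over P7 OB, beside 29.8% of all features. In P7 FB over P7 OB 3 of 6, Ldb2, Ssbp3 and Ssbp4, were higher, beside 31.1%, and 1, Ssbp2, was lower, beside 18.0%. With 6 genes, nothing is read from these counts against all features. Ldb1 averaged 46.4 ± 52.3 FPKM in E15.5 MB and 47.5 ± 65.7 in E15.5 FB. Ldb2 was found in 32 of 47 E15.5 MB cells with Lhx9 and in 15 of 41 without, and in 13 of 53 E15.5 FB cells with Isl1 and in 17 of 31 without. In P7 OB Ldb2 was listed at 0 in all 16 cells, beside 7 of 30 in P7 MB and 7 of 31 in P7 FB with a value. Of the 4 LIM-only genes, whose proteins bind the same cofactors and no DNA, Lmo3 (191.7 ± 270.1 in P7 MB and 38 ± 80.9 in P7 FB) and Lmo1 (16.9 ± 27 and 5.79 ± 10.6) passed 2-fold upwards in P7 MB over P7 FB, and Lmo2 (2.77 ± 8.46 and 23.7 ± 88.1) downwards. At E15.5 1 of 4, Lmo1 (62.9 ± 230.2 in MB and 27.4 ± 83.5 in FB), was at least 2-fold higher in MB. The shares of all features for these comparisons are those given above, and with 4 genes nothing is read against them.

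The genes whose levels followed each member most closely over the cells of its most frequent group were ranked by Pearson's r of log2(FPKM + 1), over features found in at least 10% of cells, for members with at least 10 positive cells. For Lhx9 in E15.5 MB (88 cells) they were the splicing factor Rbfox1 (0.63), Evx1 (0.61), its antisense neighbour Evx1os (0.60), Lhx2 (0.56) and Fam19a2 (0.54). For Lhx2 in the same cells they were the zinc finger factor Zeb2 (0.64), Lhx9 (0.56), Lmo7 (0.52), Gm43352 (0.47) and Mab21l2 (0.47). The r of these pairs ran between 0.33 and 0.70 on the E15.5 library plates taken apart. For Lhx5 in E15.5 FB (84 cells) the leading gene was Gm27199 (0.65), the antisense gene that overlaps it, followed by the amino acid transporter Slc1a5 (0.57), Lypd1 (0.55), Lin54 (0.50) and Pla2g12a (0.50). For Lhx1 in E15.5 FB the first 4 were the phosphatase Ptprr (0.58), the kinase Map3k20 (0.56), Dgkh (0.53) and Pax6 (0.51), of which Dgkh had -0.07 on library plate 1. For Isl1 in P7 FB (31 cells) they were Rph3a (0.76), Dus3l (0.72), Ktn1 (0.65), Gad2 (0.63) and Pigt (0.63), and on the exchanged plates (50 cells) their r was 0.12, 0.19, 0.22, 0.33 and 0.19. Cells of a group share their pool, plates and depth, and these values are a description with no test. Lhx6 and Lhx8 had under 10 positive cells in every group.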

How the data were processed

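Single cells were sorted and copied with Smart-Seq2, with 20 preamplification and 14 enrichment cycles per the labels' protocols. The authors' deposited table holds FPKM values per gene and cell; the submitters' processing notes name HISAT2, Cuffnorm and mm10, without versions or annotation. Counts were not used here, so the read depth is unknown. Cells, groups, clusters and the quality call were taken from the labels. Of 473 cells 396 passed and 77 failed. Plates entered the main values where the gene count in the labels followed the count of genes reaching 1 FPKM in the column of that name, with r of 0.9 or more. The authors' FPKM were averaged over cells, and the log2 fold was computed from the means plus 1 FPKM, for features with a mean of at least 1 FPKM in either group. The table was not rescaled in the main values; summed FPKM differed between plates and ages. A table of gene identifiers and symbols named 28636 of 28952 features, and sequences came from GENCODE M21 transcripts. Named genes were the 7 members, genes of fixed lists, Th, and for each member with at least 10 positive cells the 5 genes of highest r, of which 1 is not reported here. The members and lists were chosen with earlier results of these data known. No test was made, because each group was 1 pool of animals. Fold and correlation steps were tested on simulated data. Alternatives were the pseudocount (0.1 and 10 FPKM), the filter, rescaling, means of log2 values, the threshold, failed cells, the highest cell left out and the choice of plates. Python 3.11.15, numpy 2.4.6, pandas 2.3.3, scipy 1.17.1 and matplotlib 3.10.9 were used.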

Additional observations from a re-analysis of the deposited data

Results flagged for a closer look

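On the plates matched by column name, Lhx2 had opposite signs between the ages in the 2 regions. Its log2 fold was -5.47 in P7 MB over E15.5 MB and 2.06 in P7 FB over E15.5 FB, and the difference between the regions was not tested, because each group was 1 pool. The FB value rested on 2 of 31 P7 FB cells, of which 1 gave 93.5% of the total. On the exchanged plates 0 of 50 P7 FB cells had Lhx2, and the log2 fold of P7 FB over E15.5 FB was -0.68. Lhx2 had a mean of 0.597 FPKM in E15.5 FB, where 4 of 84 cells had it. Both means were thus under 1 FPKM, and the fold depends on the added 1 FPKM. No direction of Lhx2 in FB is therefore read on the exchanged plates.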

How the results depend on the processing

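No paired analysis was possible because each group was 1 pool of animals and the cells carry no shared replicate numbers. Regions did share library plates: the P7 regions were compared within 1 plate, and for E15.5 MB over E15.5 FB 3 and 2 members were higher and 2 and 5 lower within E15.5 library plates 1 and 2. Numbers of members past 2-fold, out of the few that passed the filter, changed with several settings, and the cause was not tested. For P7 MB over P7 FB they were 0 higher and 2 lower with a pseudocount of 10 FPKM, 0 and 1 with means of log2 values, 2 higher with failed cells included, and 2 lower when each gene lost its highest cell. For P7 MB over P7 OB they were 0 higher and 1 lower with a pseudocount of 10, 0 and 0 with means of log2 values, 2 higher with failed cells, 0 lower without the highest cells and 0 lower on the exchanged plates. For P7 FB over P7 OB they were 1 higher with a pseudocount of 10, 1 higher and 0 lower with means of log2 values, 2 higher and 0 lower without the highest cells, and 0 lower on the exchanged plates. For E15.5 MB over E15.5 FB they were 1 lower with means of log2 values. For P7 MB over E15.5 MB they were 2 lower with means of log2 values and 1 higher with all 3 P7 plates read by column name. For P7 FB over E15.5 FB they were 0 higher with a pseudocount of 10, with means of log2 values, without the highest cells, on the exchanged plates and with all 3 P7 plates, and 1 lower with means of log2 values. Directions turned for Lhx1 in P7 MB over P7 FB read by column name (0.82), and on the exchanged plates for Lhx2 in P7 MB over P7 FB (0.62), Lhx8 in P7 FB over P7 OB (2.04) and Lhx2 in P7 FB over E15.5 FB (-0.68). In each of these exchanged-plate comparisons the gene was listed at 0 in 1 group, so the fold depends on the added 1 FPKM. Directions also turned for Lhx5 (0.17) and Lhx6 (0.40) in E15.5 MB over E15.5 FB on library plate 1, and for Lhx6 in P7 MB over E15.5 MB with means of log2 values (0.015) and on library plate 2 (0.58). Mean Lhx1 was higher in E15.5 MB than in E15.5 FB on library plate 1 and lower on library plate 2. All 19 E15.5 MB cells with Lhx2 at 10 FPKM or more had Lhx9 at that level (100%), as had 10 of 10 with Lhx2 on library plate 1 (100%). On single library plates 100% of 3 Lhx8 cells had Lhx6 (plate 1) and 100% of 3 Lhx1 cells had Lhx5 (plate 2). Without any filter on low values all 12 counts were within 1.5 times their main values.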

Other observations

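At E15.5, lists of other regional factors were set beside all features, of which 8.46% were at least 2-fold higher and 9.41% at least 2-fold lower in E15.5 MB over E15.5 FB. Of the factors that passed the filter, 8 of 8 dorsal midbrain factors and 6 of 6 midbrain dopaminergic factors were at least 2-fold higher (median log2 fold 2.77 and 3.85). In the same comparison 8 of 9 hypothalamic factors, 4 of 4 Dlx genes and 4 of 4 GABAergic genes were at least 2-fold lower (median -1.83, -3.75 and -1.91), as were 3 of 7 ventral forebrain factors (median -0.64). The ninth hypothalamic factor, Sox14, was at least 2-fold higher, and of the 7 members 2 were higher and 4 lower. Pax7, Barhl1, Foxa2 and En1 were listed at 0 in E15.5 FB and passed the filter only through E15.5 MB. A call of higher was fixed in advance for them. Evx1, Foxa1 and Otx2 had E15.5 FB means under 1 FPKM and could not be called lower. No count of these lists is therefore read against the share of all features. The lists were chosen with earlier results known, and these counts are a description of the 2 pools.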
